A study of Homo sapiens with 9 samples.

Results

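The ends of human chromosomes were described here by the γH2AX peaks within 5 Mb of them. Of the 44 ends of chromosomes 1 to 22, 36 were taken, 15 on short (p) arms and 21 on long (q) arms. Both ends of chromosome 17, the 9p end and the p ends of 13, 14, 15, 21 and 22 were set aside. A peak belonged to an end when its midpoint lay within 5 Mb of the first or last base of the chromosome in GRCh38. The 36 ends hold 178 Mb of assembled sequence, which is 6.46% of the assembled autosomes. They held 892 and 799 of the 4797 and 4343 peaks in the untreated lists, 2537 and 1919 of 17680 and 14016 after APH, 5364 and 4851 of 79950 and 69977 after HU, and 1370 and 974 of 12216 and 10488 after MMS (replicates 1 and 2 of each condition).

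The lists come from chromatin immunoprecipitation with an antibody against γH2AX, followed by sequencing, in 1 established human B-lymphocyte line, named GM07027 in the study's methods and GM09027A in the sample labels. Cells were untreated or kept for 24 h in 0.1 μg/mL APH (aphidicolin, which blocks replicative DNA polymerases), 2 mM HU (hydroxyurea, which depletes deoxynucleotides) or 200 μM MMS (methyl methanesulfonate, which methylates DNA bases). Each condition has 2 libraries, with the peaks of each library called on its own. No other cell line and no other genotype was part of these comparisons, so all values describe this line alone. The lists hold no read numbers, so their depth is unknown, and a treatment and a difference in depth cannot be told apart in the number of peaks.

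γH2AX is histone H2AX phosphorylated by the kinases ATM, ATR and DNA-PK, and it spreads over chromatin around broken ends and stalled replication forks. Human chromosomes end in telomeres, long arrays of the hexamer TTAGGG that shelterin proteins cover so that the natural end is not treated as a break, and short or uncovered telomeres are marked by γH2AX. Inside the telomere lies the subtelomere, a patchwork of segments shared between several chromosomes, followed by sequence that is unique to the arm and is often rich in genes and in GC. Reads from the telomere array itself cannot be placed on one chromosome, so the peaks here lie in the assembled sequence inside it. How much of the sequence under them is shared between ends was not examined.

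The sequences under some of the most enriched peaks are printed from the reference genome in lower case, 5′ to 3′ on the forward strand. Each TTAGGG or its reverse complement CCCTAA is in capitals. For each condition the 2 strongest peaks present in both replicates were taken, ranked by fold enrichment (reads over the background estimated from input). Not shown are the untreated peak at 8q and the lower-ranked of the APH and of the MMS peaks. Each sequence is the central 300 bases of the stretch that both replicates cover, or all of that stretch where it was shorter.
The untreated peak at 21q (chr21:46671092-46671391): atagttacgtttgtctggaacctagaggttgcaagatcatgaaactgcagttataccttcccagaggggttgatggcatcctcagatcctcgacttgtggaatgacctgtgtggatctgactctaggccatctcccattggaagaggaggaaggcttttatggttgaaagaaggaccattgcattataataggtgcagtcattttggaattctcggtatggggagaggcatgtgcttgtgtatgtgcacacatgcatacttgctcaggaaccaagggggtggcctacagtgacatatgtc
The APH peak at 21q (chr21:46670652-46670951): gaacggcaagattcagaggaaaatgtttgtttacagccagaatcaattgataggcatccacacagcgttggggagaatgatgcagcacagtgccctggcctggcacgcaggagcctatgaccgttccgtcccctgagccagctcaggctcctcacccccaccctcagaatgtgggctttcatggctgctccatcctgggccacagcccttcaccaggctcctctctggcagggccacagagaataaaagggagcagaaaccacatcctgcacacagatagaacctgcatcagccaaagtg
The HU peak at 7q (chr7:157303588-157303717): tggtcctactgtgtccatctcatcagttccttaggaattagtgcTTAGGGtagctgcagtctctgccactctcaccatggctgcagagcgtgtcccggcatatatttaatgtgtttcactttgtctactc
The HU peak at 9q (chr9:136582233-136582532): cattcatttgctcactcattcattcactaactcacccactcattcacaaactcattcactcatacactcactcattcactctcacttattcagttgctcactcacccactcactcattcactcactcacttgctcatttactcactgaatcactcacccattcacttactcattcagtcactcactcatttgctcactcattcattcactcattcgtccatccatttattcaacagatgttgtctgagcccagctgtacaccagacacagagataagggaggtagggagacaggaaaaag
The MMS peak at 21q (chr21:46658841-46659066): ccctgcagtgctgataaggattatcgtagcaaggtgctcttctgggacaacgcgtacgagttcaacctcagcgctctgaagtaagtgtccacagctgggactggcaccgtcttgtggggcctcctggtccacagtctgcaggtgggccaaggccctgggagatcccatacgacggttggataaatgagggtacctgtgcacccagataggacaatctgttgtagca

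The untreated peak spanned chr21:46668487-46673327 in replicate 1, 39.1 kb from the end of the chromosome, with a fold enrichment of 4.44 in replicate 1 and 3.60 in replicate 2. It lies in the long noncoding RNA gene ENSG00000289511. Its APH counterpart, at chr21:46667969-46673393 in replicate 1, had a fold enrichment of 3.92 and 3.64. The MMS peak, with 3.44 and 3.08, lies 51.0 kb from the same end and covers part of a coding exon of PRMT2, a protein arginine methyltransferase. The other named APH peak, with 3.796 and 3.56, also lies over PRMT2, and so does the other named MMS peak, with 3.45 and 2.76. The other named untreated peak lies 70.4 kb from the 8q end, 300 bp from C8orf33, with 3.94 and 3.42. Under HU the named peaks lay much farther in, at 2042 kb from the 7q end and 1812 kb from the 9q end, both outside genes. Their fold enrichment was 2.65 and 4.69 at 7q, where the replicates differed by more than at any other named peak, and 3.26 and 3.88 at 9q. The 9q sequence is largely made of short repeated units rich in cact and catt.

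Among the 5 sequences, only the HU peak at 7q held a TTAGGG, as a single copy. Over both strands, at least 1 copy of TTAGGG lay in the central 300 bp of 10.8% and 12.4% of the untreated peaks in the first 500 kb, and in 10.1% of all 300 bp tiles there. In the tiles from 0.5 to 5 Mb the share was 9.42%, and it was 10.3% in the rest of the autosomes. Among untreated peaks it was 10.4% and 8.71% from 0.5 to 5 Mb, and 11.4% and 11.8% in the rest of the autosomes. The longer motif of 2 tandem copies, which is contained in the shorter one's matches, was held by 0.208% of the tiles in the first 500 kb and by 0.00661% of those in the rest of the autosomes, and by 1 of 545 (0.183%) and 0 of 466 untreated peaks in the first 500 kb. These counts say only that the letters lie in these windows.

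Peaks were dense at the ends in untreated cells, less so after APH and MMS, and close to the autosomal mean after HU. The measure is the relative density, the peaks per assembled Mb at the ends divided by the peaks per assembled Mb of all autosomes in the same list. It divides out the length of a list, but it can still differ between the strong and the weak peaks of a list. Over the 36 ends together it was 2.89 and 2.86 in untreated cells, 2.22 and 2.12 after APH, 1.04 and 1.07 after HU, and 1.74 and 1.44 after MMS. In each treatment both lists were lower than both untreated lists, and no condition overlapped another. As a share of the autosomal list, the ends held 18.6% ± 0.141 (SD, n = 2) of peaks in untreated cells, 14.03% ± 0.473 after APH, 6.83% ± 0.158 after HU and 10.3% ± 1.36 after MMS.

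The log2 difference of the relative density from untreated was -0.40 for APH, -1.44 for HU and -0.86 for MMS. In a two-sided exact permutation test, 2 lists against 2 give a p of 0.333 at the least, and each of these 3 comparisons gave 0.333. The 6 treated lists against the 2 untreated ones differed by -0.90 on the log2 scale, with p = 0.0714 in the exact permutation test (smallest possible 0.0357) and 0.333 after Benjamini-Hochberg adjustment over the 7 comparisons made. With equal numbers of the strongest peaks from each list, the log2 differences were -0.11 for APH, -1.27 for HU and -0.76 for MMS, so the APH value was much nearer to 0. The 3 comparisons share the untreated lists. Between treatments, the log2 difference was -1.04 for HU against APH, -0.58 for HU against MMS and 0.46 for APH against MMS, each with p = 0.333 in the exact permutation test. None of these differences passed a threshold of 0.05, and the separation of the lists is all that these replicates show.

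The ends are rich in GC, at 47.4% against 40.5% in the autosomes more than 5 Mb from an end. When the expected number was taken from autosomal windows of the same GC content in the same list, the relative density was 1.31 and 1.47 in untreated cells, 0.911 and 1.03 after APH, 0.433 and 0.426 after HU, and 0.795 and 0.757 after MMS. The order of the conditions and the direction against untreated were as before, but on this scale both untreated lists lay above 1, the APH lists lay on either side of 1, and the MMS and HU lists lay below it.

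In untreated cells most peaks of the ends lay in the outermost sequence. In the first 500 kb the relative density was 19.1 and 18.0 in untreated cells, from 545 and 466 peaks. It was 8.05 and 8.96 after APH, from 850 and 751 peaks. It was 1.13 and 1.27 after HU, from 541 and 532 peaks, and 3.89 and 3.69 after MMS, from 284 and 231 peaks. Counted as peaks, the first 500 kb thus held more of them after APH than in untreated cells in both replicates, fewer after MMS, and numbers after HU between those of the untreated lists, although the HU lists were far longer. This step held 59.7% ± 1.96 (SD, n = 2) of all untreated peaks of the ends, 36.3% ± 3.98 of those after APH, 22.2% ± 2.11 after MMS and 10.5% ± 0.623 after HU. With the expected number taken from sequence of the same GC content, the values were 9.11 and 9.63 for untreated cells, 3.46 and 4.46 for APH, 0.489 and 0.525 for HU, and 1.85 and 1.98 for MMS. With equal numbers of the strongest peaks and no allowance for GC content, the relative density of this step was 20.4 and 18.0 for untreated cells, 16.2 and 15.5 for APH, 1.198 and 1.66 for HU, and 4.83 and 4.83 for MMS.

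**Figure D1:**
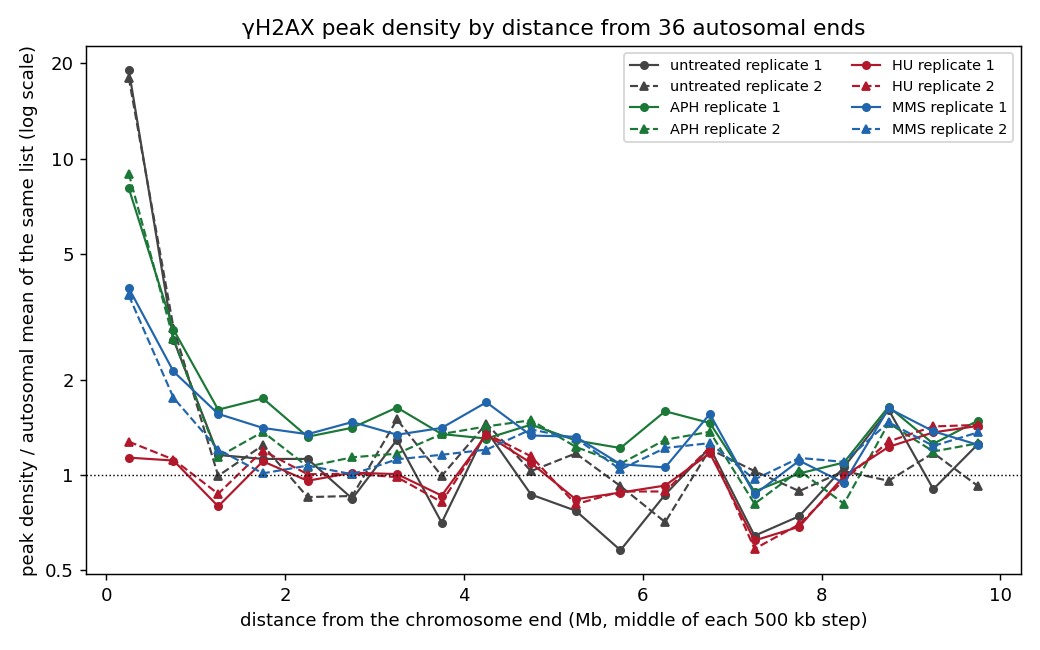
Peak density relative to the autosomal mean of the same list (y axis, log scale, no unit) by distance from the chromosome end in steps of 500 kb (x axis, Mb), summed over the 36 ends, with 1 line per list and a dotted line at the autosomal mean. The untreated lists start at 19.1 and 18.0, the APH lists at 8.05 and 8.96, the MMS lists at 3.89 and 3.69 and the HU lists at 1.13 and 1.27, and from 1 to 5 Mb all steps lie between 0.705 and 1.74.

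Beyond the first step the curves dropped quickly. From 500 kb to 1 Mb the relative density was 2.67 and 2.92 in untreated cells, 2.88 and 2.68 after APH, 1.11 and 1.12 after HU, and 2.12 and 1.75 after MMS. From 1 to 5 Mb the steps of the untreated lists ranged from 0.705 to 1.38 and from 0.849 to 1.49. Those after APH ranged from 1.30 to 1.74 and from 1.06 to 1.49, and those after HU from 0.794 to 1.34 and from 0.819 to 1.35. Those after MMS ranged from 1.33 to 1.69 and from 1.003 to 1.39, so that all 4 APH and MMS lists lay above 1 in every step. From 5 to 10 Mb, outside the ends, the untreated steps covered 0.577 to 1.60 and 0.708 to 1.203, which overlaps the range from 1 to 5 Mb.

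The ratio of the first 1 Mb to the stretch from 4 to 5 Mb summarises this decay. It was 9.39 and 8.20 in untreated cells, 3.91 and 3.92 after APH, 0.923 and 0.957 after HU, and 1.96 and 2.07 after MMS. HU was the condition without a decay, with slightly more peaks per Mb at 4 to 5 Mb than in the first 1 Mb in both lists. The median distance of a peak of the ends from the chromosome end was 365 and 378 kb in untreated cells, 1223 and 899 kb after APH, 1982 and 1849 kb after MMS, and 2573 and 2487 kb after HU. The HU medians lay near the middle of the 5 Mb, where peaks spread evenly would put them.

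Within the first 500 kb the untreated density per assembled base formed a plateau and not a spike at the tip. In steps of 50 kb it was 23.2 and 24.1 in the outermost step, 23.6 and 23.9 in the next, and 28.03 and 24.6 from 150 to 200 kb. It was 13.5 and 14.5 from 300 to 350 kb and 8.01 and 7.43 from 450 to 500 kb. After APH the outermost step had 8.60 and 8.58, the step from 250 to 300 kb had 10.99 and 11.9, and the last had 4.25 and 5.14. After MMS the outermost step had 2.33 and 2.12, lower than the 5.11 and 4.28 of the next step. These outermost steps hold little assembled sequence, 0.871 Mb over all ends, and 35 and 33 untreated peaks. The share of each step to which reads can be mapped was not examined, so its part in this shape was not tested.

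**Figure D2:**
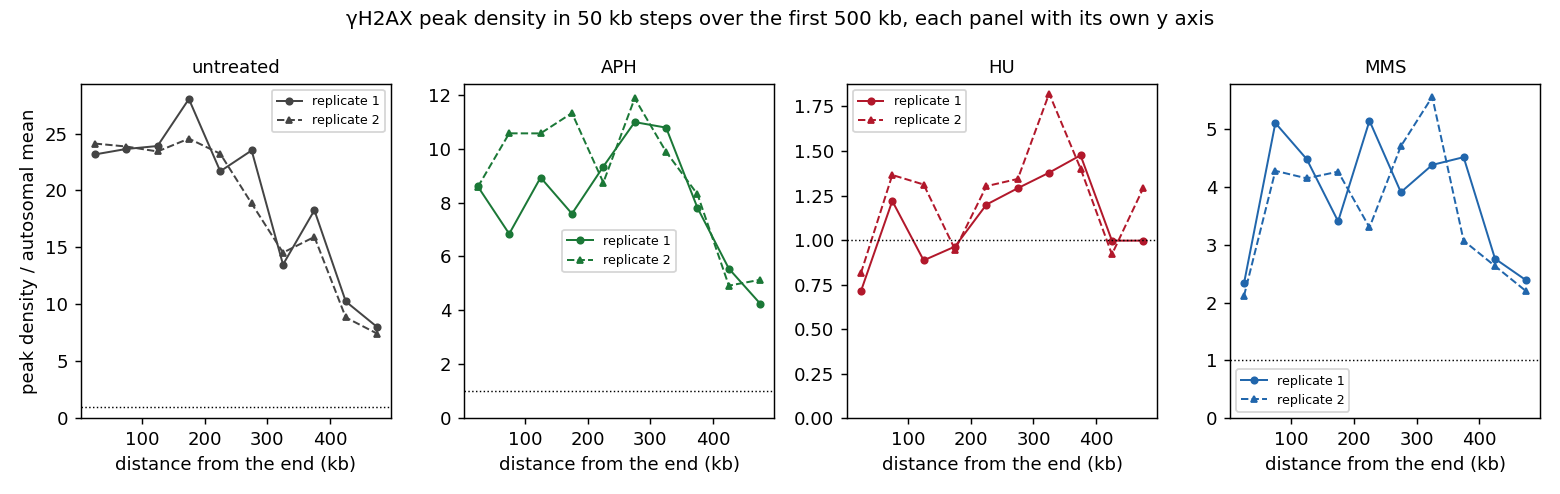
Peak density relative to the autosomal mean (y axis, no unit, scaled for each panel) in steps of 50 kb over the first 500 kb (x axis, kb from the end), summed over the 36 ends, with 1 panel per condition, 1 line per replicate and a dotted line at the autosomal mean. The untreated density stays between 18.9 and 28.03 up to 300 kb and then drops to 8.01 and 7.43 in the last step, while the HU density stays between 0.713 and 1.82.

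The HU lists lay below the untreated ones mainly in the outermost step. For the first 500 kb, the log2 difference from untreated was -1.13 for APH, -3.95 for HU and -2.29 for MMS. For the stretch from 0.5 to 5 Mb, the relative density was 1.24 and 1.31 in untreated cells, 1.63 and 1.42 after APH, 1.03 and 1.05 after HU, and 1.52 and 1.21 after MMS. There the log2 difference was 0.26 for APH, -0.29 for HU and 0.09 for MMS, and the MMS lists overlapped the untreated ones. All 6 comparisons of 2 lists with 2 gave p = 0.333 in the exact permutation test, except MMS in the inner stretch, with p = 1. In the first 500 kb the 6 treated lists against the untreated ones gave p = 0.0714 in the exact permutation test.

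The ends differed widely from each other. In untreated cells the relative density of single ends ranged from 0.123 at 8p to 11.5 at 21q, as the mean of both replicates, with a median of 1.76. The highest were 21q with 11.3 and 11.6, 5q with 8.17 and 9.54, 12p with 6.82 and 6.26, and 8q with 5.60 and 5.80. The lowest were 8p with 0.117 and 0.129, 3p with 0.462 and 0.128, and 4q with 0.467 and 0.258. Neighbours in the order below 5q were often not separated, since the ranges of 8q and 22q, of 22q and 2p, and of 2p and 20p overlap.

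Counted as peaks, 21q held 97 and 90 in untreated cells, 5q held 70 and 74, and 8p held 1 and 1. At 21q, 77 and 72 of these peaks lay in the first 500 kb, which is 90.6 and 93.6 times the autosomal mean. At 5q, 41 and 43 lay there. The 5 ends with the most peaks in this step held 44.9% of all untreated peaks of the step, and without 21q the mean relative density of the step was 16.3 in place of 18.5.

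Peaks at the tip were not common to all ends. In untreated cells 1p, 2q and 4p had no peak in the first 500 kb in either list. The 1p end had none there in any of the 8 lists. The 3p, 7p, 8p, 18p and 19p ends had at most 1 peak there in each untreated list. Copy number and the share of each tip to which reads can be mapped were not examined here, so their part in a count of 0 or in a high density at a single end or locus was not tested.

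An end was taken to stand out when its relative density over 5 Mb was at least 1.5 in both replicates. In untreated cells 20 of 36 ends stood out, against 15.1% of all 555 autosomal 5 Mb windows, and 3 ends (3p, 4q and 8p) were at 0.5 or less in both lists, against 40.2% of windows. After APH 23 ends stood out, against 21.4% of windows, and the same 3 ends were low, against 35.7%. After MMS 14 ends stood out, against 19.5% of windows, and 2 were low, against 29.5%. After HU 8 ends stood out, which is 22.2% and close to the 23.2% of all windows, and 10 were low, or 27.8% against 41.8%.

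With the expected number taken from GC content, 14 ends stood out in untreated cells, 7 after APH, 1 after MMS (21q) and 0 after HU. The ends that stood out in all 4 conditions against the autosomal mean were 3q, 12p, 16p, 16q, 20p and 21q. The 12 ends that did so in untreated, APH and MMS lists added 5q, 6p, 8q, 9q, 19q and 22q to these. No share over all windows was taken for the counts from GC content or for these shared sets.

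**Figure D3:**
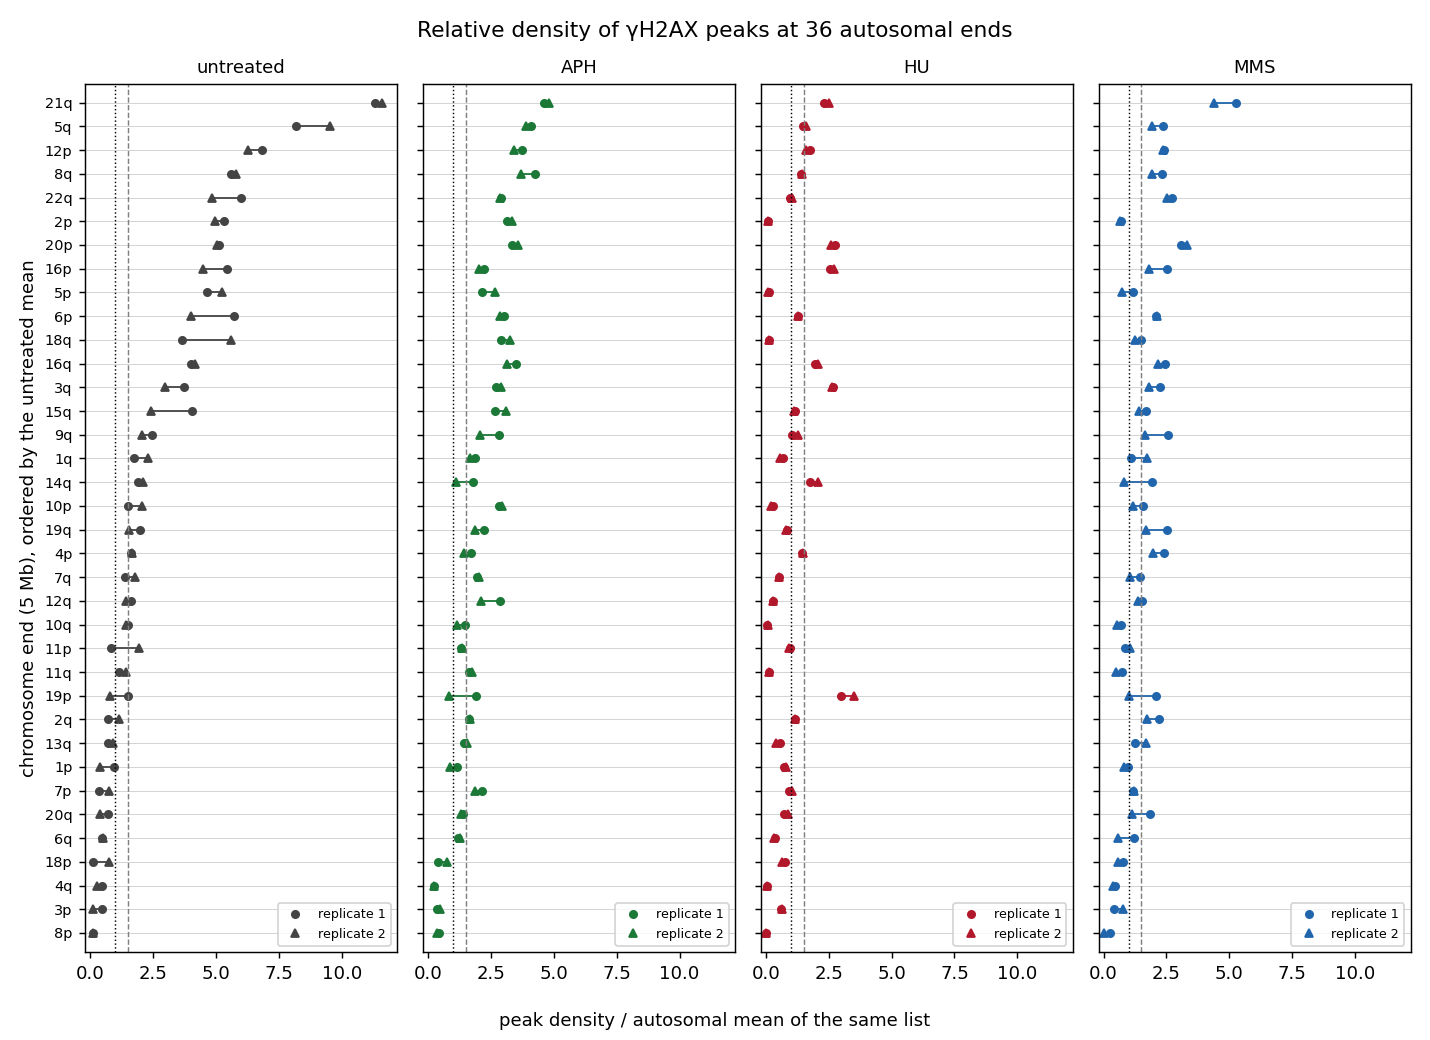
Relative density of peaks over 5 Mb (x axis, no unit) at each of the 36 ends (y axis, ordered by the untreated mean), with 1 panel per condition, a circle for replicate 1, a triangle for replicate 2, a dotted line at the autosomal mean and a dashed line at 1.5. The 21q end lies at 11.3 and 11.6 in untreated cells and is highest also after APH and MMS, while after HU 19p is highest with 2.98 and 3.495, and 2p, 5p and 18q, all at 3.66 or more in untreated cells, lie at 0.145 or less.

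After APH the leading ends were largely those of untreated cells. They were 21q with 4.61 and 4.82, 5q with 4.08 and 3.90, 8q with 4.27 and 3.70, and 12p with 3.75 and 3.43. The lowest were 4q with 0.221 and 0.239, 8p with 0.442 and 0.358, and 3p with 0.375 and 0.473. The rank correlation of the 36 mean relative densities between untreated and APH was 0.909 over 36 ends, given as a description, since each end has the same sequence in both conditions.

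After MMS the highest were 21q with 5.26 and 4.37, 20p with 3.06 and 3.31, 22q with 2.72 and 2.53, and 12p with 2.40 and 2.38. The lowest were 8p with 0.274 and 0, 4q with 0.457 and 0.373, and 3p with 0.407 and 0.792. The rank correlation with untreated was 0.697.

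After HU the highest were 19p with 2.98 and 3.495, 20p with 2.74 and 2.59, 3q with 2.65 and 2.63, and 16p with 2.56 and 2.71. The lowest were 8p with 0.00698 and 0.00798, from 1 peak in each list, 4q with 0.0629 and 0.0319, and 2p with 0.0691 and 0.0869. HU ranked the ends unlike untreated cells (rank correlation 0.465) and more like MMS (0.808). Across the 36 ends, the rank correlation of the relative density with the number of protein-coding genes was 0.695 under HU, 0.632 under MMS, 0.312 in untreated cells and 0.194 under APH. With GC content it was 0.506, 0.467, 0.200 and 0.142 in the same order. These are descriptions over 36 ends that differ in GC content and gene number together.

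Against untreated cells, the dense ends held very different numbers of HU peaks at their tips. In relative density, both HU lists were lower than both untreated lists at 27 of 36 ends (75%, against 20.4% of all windows). They were higher at 4 (11.1%, against 48.5%). Counted as peaks over the 5 Mb, both HU lists held fewer than both untreated lists only at 2p, 5p and 18q. At 21q, for example, the HU lists held 330 and 317 peaks against 97 and 90. The lowest log2 ratios were -6.04 at 2p, -5.55 at 5p and -5.05 at 18q. At 2p the first 500 kb held 40 and 30 peaks in untreated cells, 64 and 63 after APH, 0 and 1 after HU and 5 and 3 after MMS. At 5p the counts were 38 and 35, 48 and 48, 7 and 3, and 10 and 7 in the same order. At 18q they were 29 and 36, 57 and 57, 8 and 10, and 20 and 14. These 3 tips thus held fewer peaks under HU than in either untreated list, as counts and not only relative to the list. The same was true of further tips, among them 5q, 8q, 12p and 21q.

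Some tips instead held more peaks under HU. At 6p the first 500 kb held 28 and 18 peaks in untreated cells and 75 and 67 after HU. At 16p it held 27 and 17, and 60 and 70 after HU. At 11p the numbers were 1 and 4, and 37 and 35 after HU, and at 19q they were 10 and 5, and 48 and 43. The tips of 6p and 16p had the highest relative density of the step under HU, with 5.88 and 6.003 and with 4.22 and 5.63. The tips of 6p, 11p, 16p and 19q were singled out after their values were seen.

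The highest log2 ratios under HU were 1.499 at 19p, 1.09 at 3p and 0.82 at 7p. At 19p the peaks lay away from the tip, with 426 and 436 HU peaks from 0.5 to 5 Mb and 1 and 2 in the first 500 kb. At 3p the HU lists held 88 and 82 peaks against 4 and 1 in untreated cells, so this ratio rests on few untreated peaks.

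**Figure D4:**
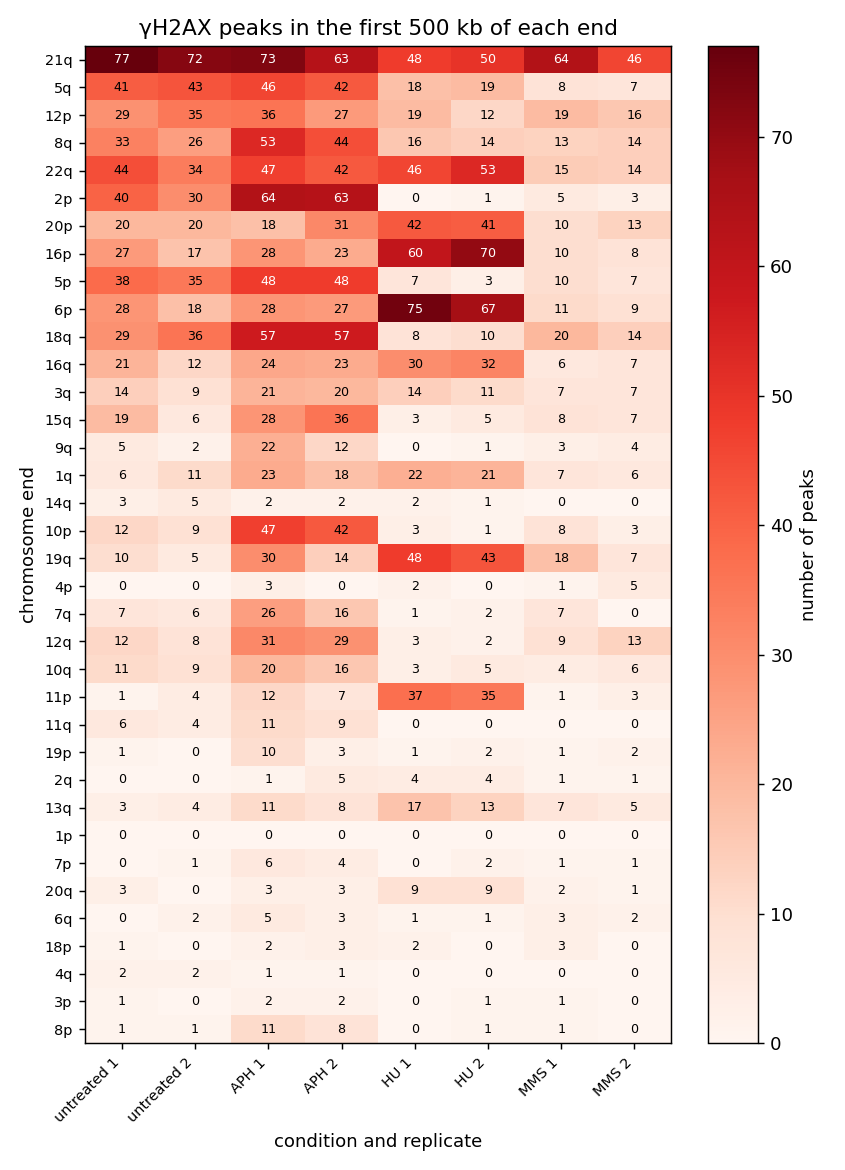
Number of peaks in the first 500 kb of each of the 36 ends (rows, ordered by the untreated mean over 5 Mb) in each of the 8 lists (columns), with the count printed and shaded from 0 to 77. The 21q row is dark in every list, 2p, 5p and 18q are dark in untreated and APH lists and pale after HU, and 6p, 16p, 19q and 11p are darkest after HU.

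APH against untreated gave a mixed picture in relative density. Both APH lists were lower at 15 ends (41.7%, against 11.7% of windows) and higher at 10 (27.8%, against 35.0%). With equal numbers of peaks, 7 ends were lower and 9 higher, and no share over all windows was taken under this setting. The lowest log2 ratios were -1.28 at 21q, -1.23 at 16p and -1.15 at 5q, which were dense ends in untreated cells. The highest were 1.85 at 7p, 1.70 at 8p and 1.31 at 20q. At 7p the APH lists held 69 and 47 peaks against 3 and 6, at 20q 44 and 33 against 6 and 3, and at 8p 14 and 9 against 1 and 1. The APH peaks of 8p lay mostly at the tip, with 11 and 8 in the first 500 kb, while those of 7p lay farther in, with 63 and 43 from 0.5 to 5 Mb.

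The 10p tip also held more peaks after APH. It held 12 and 9 peaks in untreated cells, 47 and 42 after APH, 3 and 1 after HU and 8 and 3 after MMS. Counted as peaks, both APH lists were thus above all other lists at this tip, as they were at other tips such as 2p, 8q and 18q. The relative density of the 10p tip was 15.0 and 16.9 after APH against 14.1 and 11.7 in untreated cells. This tip was singled out after its values were seen.

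By relative density, both MMS lists were lower than both untreated lists at 16 ends (44.4%, against 9.19% of windows). They were higher at 6 (16.7%, against 42.5%). Counts of peaks can differ in direction: at 20p they were 67 and 62 after MMS against 44 and 39 in untreated cells. At 2p they were 15 and 12 against 46 and 39. The lowest log2 ratios were -2.97 at 2p, -2.36 at 5p and -2.04 at 5q. The highest were 1.44 at 20q, 1.104 at 2q and 1.104 at 7p. At 21q the tip held 64 and 46 peaks after MMS against 77 and 72 in untreated cells.

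**Figure D5:**
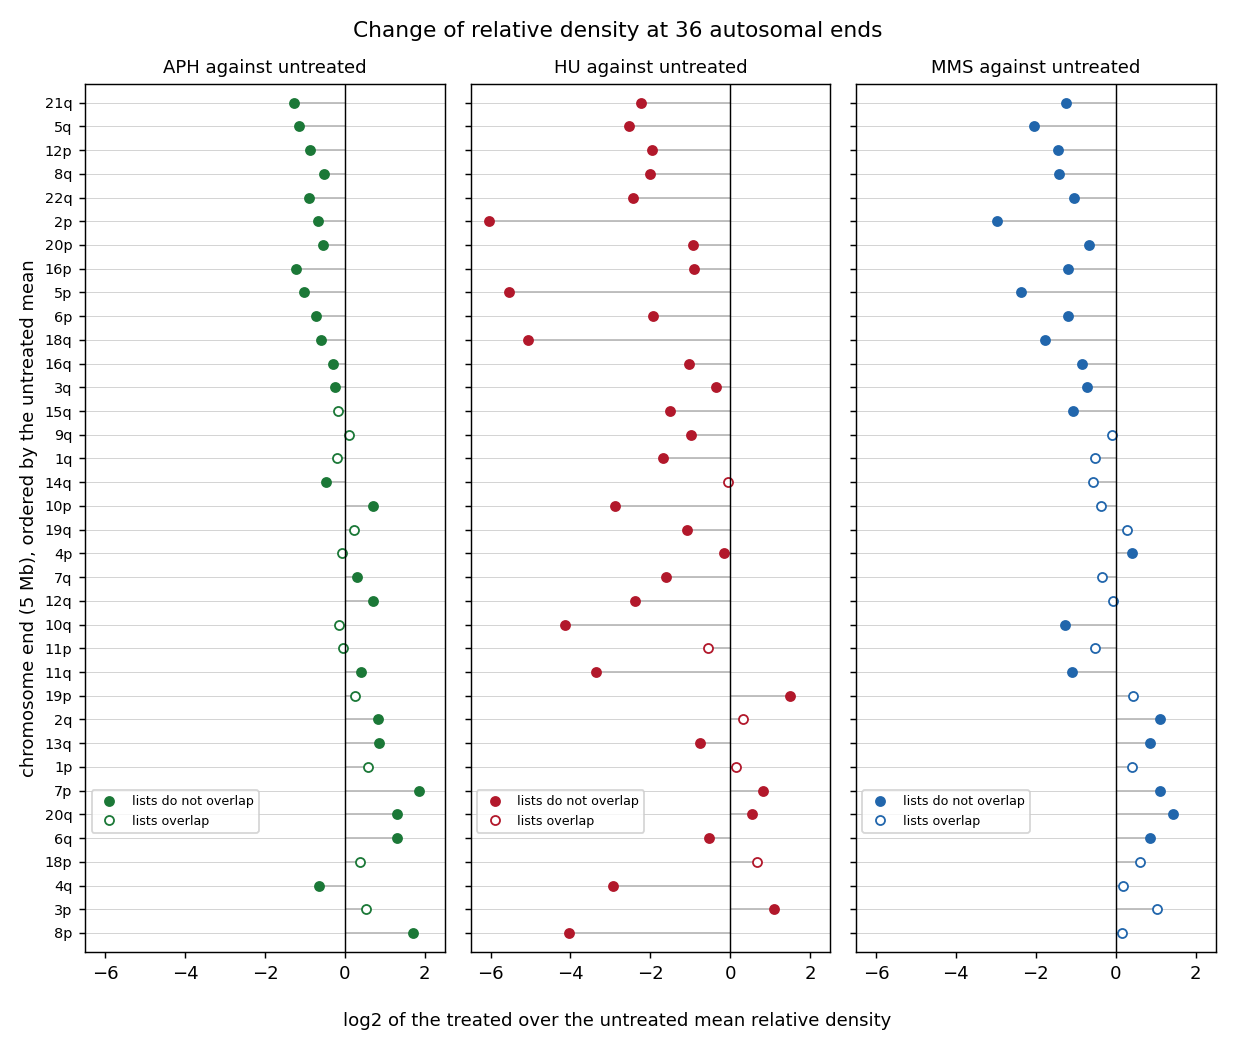
log2 ratio of the mean relative density after treatment to that in untreated cells (x axis) at each of the 36 ends (y axis, ordered by the untreated mean), with 1 panel per treatment, filled where both treated lists lie on 1 side of both untreated lists and open where the lists overlap. Under HU 2p, 5p and 18q reach -6.04, -5.55 and -5.05, and 27 of 36 ends lie below the untreated lists.

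The untreated lists are shared by the 3 comparisons, so their values at an end are not independent. The untreated densities that set the order of the ends are also the denominators of these ratios.

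The peaks at the tips were found again in the other replicate more often than those farther in. In the first 500 kb, 47.3% and 60.5% of untreated peaks overlapped a peak of the other replicate, against 5.48% and 6.01% from 0.5 to 5 Mb. After APH the shares were 49.2% and 57.0% at the tip and 6.99% and 10.02% farther in, and after MMS 19.4% and 23.4%, and 4.14% and 6.06%. After HU they were 51.9% and 53.0%, and 42.0% and 47.1%, so that HU peaks were found again at a similar rate along the whole end. Denser stretches overlap more readily, and the part of density in these shares was not tested.

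The tip peaks of untreated cells were found in the APH lists more than in the others. Of untreated peaks in the first 500 kb, 67.5% overlapped an APH peak on average over the pairs of lists, and 35.4% of APH peaks there overlapped an untreated one. For HU the shares were 26.1% and 27.5%, and for MMS 17.6% and 41.5%. In the rest of the autosomes, 17.4% of untreated peaks overlapped an APH peak, 37.5% an HU peak and 9.49% an MMS peak. There, 4.76% of APH, 2.02% of HU and 4.20% of MMS peaks overlapped an untreated one. The lists differ in length, so each share is given for both directions.

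The peaks themselves had a low fold enrichment in all conditions. In the first 500 kb their median width was 778 and 793 bp in untreated cells, 768 and 789 bp after APH, 773 and 793 bp after HU, and 554 and 595 bp after MMS. From 0.5 to 5 Mb it was 488 and 491 bp in untreated cells and 724 and 725 bp after HU. The median fold enrichment in the first 500 kb was 2.72 and 2.70 in untreated cells and 2.73 and 2.82 after HU. A q-value of at most 0.05, which corrects for the number of positions tested, was reached by 10 and 4 untreated peaks of the tips, 25 and 36 after APH, 1 and 1 after MMS, and 438 and 335 after HU. Most peaks outside the HU lists therefore passed only the uncorrected threshold of the peak caller.

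The genes with the most peaks differed between conditions. In untreated cells they were DIP2A at 21q, PLEKHG4B at 5p and PARD6G at 18q. DIP2A, a member of the disco-interacting protein family, held 31 and 32 peaks over its 111 kb in untreated cells, 9 and 14 after APH, 14 and 13 after HU and 24 and 15 after MMS. PLEKHG4B held 20 and 19, 29 and 25, 0 and 3, and 4 and 3 in the same order. PARD6G, a cell polarity protein, held 17 and 20, 21 and 22, 3 and 4, and 4 and 4. The last 2 genes lie on the tips of 5p and 18q, which held fewer peaks in both HU lists than in either untreated list.

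After APH the leading genes were PLEKHG4B, DIP2C and PCNT. DIP2C, a paralog of DIP2A at 10p, held 5 and 6 peaks in untreated cells, 30 and 24 after APH, none after HU and 4 and 1 after MMS. PCNT, which encodes the centrosome scaffold pericentrin at 21q, held 19 and 12, 30 and 24, 3 and 4, and 13 and 8 in the order untreated, APH, HU and MMS. It was also a leading gene under MMS, with DIP2A and with TBC1D22A at 22q, which held 12 and 11 peaks after MMS and 0 and 0 in untreated cells.

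After HU the leading genes lay far from the tips. ITPR1 at 3p, a calcium channel of the endoplasmic reticulum, held 44 and 30 peaks after HU, 3 and 0 in untreated cells, 5 and 7 after APH and 5 and 6 after MMS. GNG7 at 19p, a G protein gamma subunit, held 31 and 30 after HU and 1 and 0 in untreated cells. KLC1 at 14q, a kinesin light chain, held 21 and 26 after HU and 0 and 1 in untreated cells. Their midpoints lie 4670, 2607 and 3406 kb from the end.

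The listed long genes of the ends held peaks most often in the APH lists. The list joins neuronal or adhesion genes with others such as MAD1L1, PRDM16, HDAC4 and EHMT1. Of the 20 listed genes, 13 held a peak in both APH lists, with a median of 1.5 peaks. The numbers were 4 in untreated cells, 5 after HU and 8 after MMS, with medians of 0, 0.25 and 0.5 peaks. Among all 2143 protein-coding genes of the ends, 17.8% held a peak in both APH lists, 5.51% in untreated cells, 36.2% after HU and 13.3% after MMS, with medians of 0, 0, 0.5 and 0 peaks in the same order. The listed genes are much longer than these, at a median of 417 kb against 18.0 kb, so the shares are not on one footing. Per 100 kb they held 0.565 peaks after APH and 0.177 after HU, against 1.40 and 3.53 over all coding genes of the ends. DIP2C, with 30 and 24 APH peaks, is one of the listed genes, and ADARB2, a brain RNA-binding protein next to it at 10p, held 12 and 10. Both held more APH peaks than any other listed gene, so the APH value per 100 kb depends much on this locus. OPCML at 11q, a cell adhesion gene, held 5 and 5, while CSMD1 and DLGAP2 on 8p, both among the longest genes listed, held at most 2 peaks in any list.

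The listed replication, repair and telomere genes held peaks about as often as other genes of the ends. Of 17 genes, 1 held a peak in both untreated lists (5.88%, against 5.51% of all coding genes of the ends), 3 in both APH lists (17.6%, against 17.8%), 5 in both HU lists (29.4%, against 36.2%) and 3 in both MMS lists (17.6%, against 13.3%). TERT, the catalytic subunit of telomerase, lies at 5p, 1274 kb from the end, and held no peak in any list. FANCA, of the Fanconi anaemia core complex at 16q, held 5 and 6 peaks after HU and 0 and 0 in untreated cells. POLN, a DNA polymerase at 4p, held 10 and 6 after HU and 3 and 0 in untreated cells.

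The listed B-cell and lymphoma genes held peaks most often in the HU lists, as all coding genes of the ends did. Of 14 genes, 7 held a peak in both HU lists (50%, against 36.2% of all coding genes of the ends), with a median of 1.5 peaks against 0.5, while 0 did in untreated cells (against 5.51%), 3 after APH (21.4%, against 17.8%) and 1 after MMS (7.14%, against 13.3%). Per 100 kb they held 3.91 HU peaks, against 3.53 over all coding genes of the ends. IRF4, a transcription factor of B cells at 6p, held 5 and 3 after HU and 0 and 0 in untreated cells, and CREBBP, a histone acetyltransferase at 16p, held 10 and 6 and 0 and 0. NFATC1, a transcription factor of lymphocyte activation at 18q, held 0 and 0 after HU and 2 and 4 after APH. The immunoglobulin heavy chain locus at 14q, 1296 kb long, held 3 and 4 peaks in untreated cells, 2 and 2 after APH, 2 and 1 after HU and 0 and 0 after MMS. The 14q end around it held 246 and 255 HU peaks, so the locus had few of them.

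Of the ends set aside, 9p, 17p and 17q were denser still in untreated cells, and the others were not analysed here. The relative density was 33.2 and 36.5 at 9p, 16.2 and 15.1 at 17p and 15.7 and 15.1 at 17q, each above the 11.3 and 11.6 of 21q. After HU the 9p end had 1.09 and 1.14 and 17q had 2.08 and 2.45. The first 500 kb of 17q held 58 and 62 untreated peaks and 14 and 18 after HU, while that of 21q held 77 and 72 untreated peaks and 48 and 50 after HU.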

How the data were processed

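The 8 deposited peak lists were made by the authors per library: adapters were trimmed, paired reads were aligned to GRCh38 with Bowtie2, reads of low mapping quality and duplicates were removed with SAMtools, and broad peaks were called against input with MACS2. Tool versions are not given in the sources used here, and the input was not analysed here. The authors deposited for each peak a fold enrichment (a ratio over background) and, as −log10, its p-value and its q-value, which were used to rank, describe or filter peaks. The filter on mapping quality removes reads from segments shared between ends.

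Peaks were counted by midpoint with Python 3.11.15, NumPy 2.4.6 and pandas 2.3.3, and drawn with matplotlib 3.10.9. Densities used assembled bases, and genes came from GENCODE release 44. The background was all 555 windows of 5 Mb with at least 2.5 Mb assembled. The density and permutation steps were tested on simulated data. The 2 replicates of a condition are independent treatments, and their spread is the only measure of precision, since the depth is unknown.

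The ends and gene lists were chosen with earlier results of these data known. Named by rule were the 4 highest and 3 lowest ends per condition, the 3 largest and 3 smallest log2 ratios per treatment among ends whose lists did not overlap, 2 peaks per condition with the highest mean fold enrichment, and the 3 protein-coding genes with the most peaks. Other items were chosen after their values were seen, as stated. The alternatives were other peak sets, measures, reference densities and widths of the ends, a replicate block, and leaving out each library. The values for the first 500 kb under other settings and a crossed pairing were added after the data were seen.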

Additional observations from a re-analysis of the deposited data

How the results depend on the processing

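All 79 alternative values of the 7 comparisons of relative density kept their direction. For the 6 comparisons of 2 lists with 2, the p-values say nothing of stability, since they cannot pass 0.05. Their size moved: against untreated, equal numbers of peaks gave -0.11 for APH, -1.27 for HU and -0.76 for MMS, ends of 2 Mb gave -0.71, -2.40 and -1.47, and peaks found in both replicates gave -0.31, -2.45 and -1.40. Equal numbers also gave 7 ends lower under APH in place of 15. Pairing lists by number (the replicate block) left the log2 differences at -0.40 for APH, -1.44 for HU and -0.86 for MMS, each with p = 0.5 in the exact permutation test, the smallest that 2 pairs allow, and gave 14, 5 and 9 ends higher than untreated in place of 10, 4 and 6. Same-numbered lists shared only a number: the correlation of their deviations over 36 ends was 0.400 for APH, -0.361 for HU and 0.0702 for MMS, and the crossed pairing under HU gave 5 ends higher and 27 lower. Without 1 library the log2 differences ranged from -0.44 to -0.37 for APH, -1.47 to -1.42 for HU, -0.996 to -0.73 for MMS and -1.01 to -0.79 for all treated lists.

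The relative density of the ends moved by more than the replicate SD under the following settings, in the order untreated, APH, HU and MMS where 4 values are given. It was 1.39, 0.968, 0.429 and 0.776 with the expected number from GC content, and 5.59, 4.52, 1.02 and 2.11 for peaks found in both replicates. For untreated, APH and HU it was 3.48, 2.43 and 1.096 for the strongest 50% of each list, 2.93, 2.71 and 1.22 for equal numbers of peaks, and 3.60, 2.85 and 0.981 for bases covered. Ends of 2 Mb gave 5.63, 3.45 and 2.04 for untreated, APH and MMS, merging peaks gave 2.78 for untreated, and the mean of the same chromosome gave 2.85, 2.07 and 1.01 for untreated, APH and HU.

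The first 1 Mb over 4 to 5 Mb was 13.8, 5.90, 0.970 and 2.45 for the strongest 50%, 22.7, 8.56, 0.909 and 2.32 for bases covered, and 6.45, 3.00, 0.721 and 1.62 from GC content. For untreated, APH and MMS it was 145, 22.3 and 8.83 for peaks found in both replicates, where 2 untreated peaks of each list lay at 4 to 5 Mb. From the first assembled base it was 3.78 for APH. The first 500 kb gave 9.37, 3.96, 0.507 and 1.91 from GC content. Equal numbers gave 15.8, 1.43 and 4.83 for APH, HU and MMS, so the APH value lay closer to untreated among strong peaks. Without 21q it was 16.3 for untreated and 3.08 for MMS.

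The count of ends that stood out was 7, 0 and 1 for APH, HU and MMS from GC content, and 5 and 6 for HU and MMS at a threshold of 2. Ends higher under HU numbered 1 from GC content. No share over all windows was taken under these settings. Leaving out 1 library gave 11 to 16 ends higher under APH (16 without untreated replicate 1), 5 to 7 under HU (7 without untreated replicate 2) and 7 to 12 under MMS (12 without MMS replicate 2, 11 without untreated replicate 1), so these counts depend on single libraries. A count of ends with fewer lists is less strict by construction, and the cause of the other shifts was not tested. Depth is unknown, and 2 lists per condition limit every comparison.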
